A study of Macaca mulatta with 102 samples.

Results

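The genes described here are 7 transcription factors that set the effector program of T cells: TBX21, EOMES, ZEB2, PRDM1, HOPX, RUNX3 and HLX. They were taken as every probe set that the array's annotation pairs with a single one of these genes, which gave 11 of the 24969 single-gene probe sets among 52865 in all. EOMES and HOPX had 2 probe sets each, PRDM1 had 3, and each of the other genes had 1. All 11 passed the filter on low values and were tested, although HLX reached its level, the median of all signals, in only 7 arrays, while TBX21, ZEB2, EOMES and HOPX reached it in every array.

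The study measured CD3 T cells, sorted by flow cytometry from the blood of rhesus macaques, on 102 Affymetrix arrays from 66 animals. Animals given a hematopoietic cell transplant were compared by the prophylaxis they had against graft-versus-host disease, the attack of donor T cells on the host. Of the recipients of donor cells, NoRx.F had no prophylaxis (n = 4, days 6 to 12) and Siro.F had sirolimus, an mTOR inhibitor (n = 4, days 12 to 24). Tacrolimus with methotrexate was given in Tac.Mtx.D14, with 3 arrays, and in Tac.Mtx.F, with 3 arrays from days 26 to 67. Belatacept, which blocks CD28 costimulation, was given with sirolimus in Bela.Siro.D14 (n = 3), Bela.Siro.D30 (n = 2) and Bela.Siro.F (n = 7, days 26 to 105). KY1005, an antibody to OX40 ligand, was given by itself to the 2 animals of KY1005.D14, sampled on days 14 and 16, and to the 3 of KY1005.F, sampled between days 16 and 23. With sirolimus it was given to the 5 animals each of KY1005.Siro.D14 and KY1005.Siro.D28, and to the 4 of KY1005.Siro.F, sampled between days 97 and 106. Recipients of their own cells formed Auto.D14 (n = 3), Auto.D36 (n = 4, days 30 to 36) and Auto.D100 (n = 4). Healthy.Control held 46 arrays of 45 healthy animals, and the arrays of the animal measured on 2 were averaged. Some of these animals are also in the groups after transplant. Sampling days differ between regimens, sorted CD3 cells mix CD4 and CD8 cells, and some animals recur in several groups.

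T-bet, the product of TBX21, and its relative Eomes are T-box factors that switch on interferon-gamma, granzymes and perforin in CD8, Th1 and natural killer cells. ZEB2, a zinc-finger repressor that T-bet induces, and Blimp-1, the product of PRDM1, drive the terminal step of effector differentiation in mouse T cells, where naive and memory factors such as TCF7 are turned down. RUNX3 sets the CD8 cytotoxic fate, HOPX is a small homeodomain protein raised by T-bet in Th1 effector cells, and HLX is a homeobox partner of T-bet in interferon-gamma production.

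Values are log2 signals as deposited, so a difference of 1 is a 2-fold change. Differences are those of a limma fit with batch as a term and can depart from the difference of plain group means. A member counted as changed when its p-value, adjusted by the Benjamini-Hochberg method over all 31710 probe sets tested, was under 0.05. The p-values rest on the spread between animals within groups. The main fit has no term for the animal, so its comparisons between times and with healthy controls do not use the pairing of recurring animals. Signals of different probe sets cannot be set against each other as levels. Where groups are said not to overlap, the share of all probe sets without overlap was not counted. In sorted bulk cells, fewer cells of a type and less RNA per cell cannot be told apart. Array medians lay between 5.13 and 5.35. In healthy controls the measured T cell markers averaged from 6.76 (CD4) to 12.36 (CD8A). Myeloid markers averaged from 5.295 (FCN1) to 7.41 (LYZ) and B cell markers from 4.96 (CD22) to 7.04 (CD79B). Natural killer markers averaged from 5.68 (SH2D1B) to 11.01 (KLRD1) and platelet markers from 4.61 (TUBB1) to 10.41 (PF4). These are levels of different probe sets and do not measure the purity of the sorted cells. CD3D, CD3E and CD3G were not measured by a single-gene probe set here.

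Against healthy controls, the calls went in different directions in different regimens. In NoRx.F 3 of 11 probe sets changed, from 2 genes, which is near the 27.5% of all probe sets that did. HOPX gave 2 of the 3, in opposite directions. The share was 4 of 11 in Siro.F, from 3 genes, against 8.91% of all. It was 5 of 11 in Bela.Siro.F, from 4 genes and all lower, against 10% of all. Probe sets of the same gene are not independent. In KY1005.Siro.F 2 of 11 changed, against 6.84% of all. Auto.D14 had 1 of 11 against 19.4% of all, and Auto.D100 had 1 of 11 against 2.48% of all. The median difference of the 11 was -0.71 in Bela.Siro.F, -0.30 in KY1005.Siro.F, 0.84 in Auto.D100 and 0.22 in NoRx.F, against medians over all probe sets of 0.00065, -0.05, 0.01 and 0.01 in the same groups.

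Limma called none of the 11 in the other 9 groups. Unadjusted p-values under 0.05 numbered 0 in Tac.Mtx.D14, where 0.880% of all probe sets were called, and 0 in Tac.Mtx.F, where 14.3% were. They numbered 1 in Bela.Siro.D14 (2.68% of all called) and 3 in Bela.Siro.D30 (1.14%). For KY1005.D14 (0.202%) and KY1005.F (3.28%) the numbers were 0 and 1. KY1005.Siro.D14 (4.15%) had 2, KY1005.Siro.D28 (12.1%) had 5 and Auto.D36 (9.26%) had 3. The percentages refer to adjusted p-values, so they are no background for these numbers. Over all 31710 probe sets, unadjusted p-values under 0.05 numbered 4561 in Tac.Mtx.D14, 8694 in Tac.Mtx.F, 6545 in Bela.Siro.D14 and 3869 in Bela.Siro.D30. They numbered 3801 in KY1005.D14, 6767 in KY1005.F, 5964 in KY1005.Siro.D14, 8336 in KY1005.Siro.D28 and 7175 in Auto.D36. With array quality weights limma called the dimmer HOPX probe set in KY1005.F (-0.41), EOMES in KY1005.Siro.D28 (-1.0) and RUNX3 in Auto.D36 (+0.72), and without R.62 it called RUNX3 in Auto.D36 (+1.07, adjusted p = 0.0233). Other settings called TBX21 and PRDM1 in KY1005.Siro.D28 and PRDM1 in Bela.Siro.D30.

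**Figure D1:**
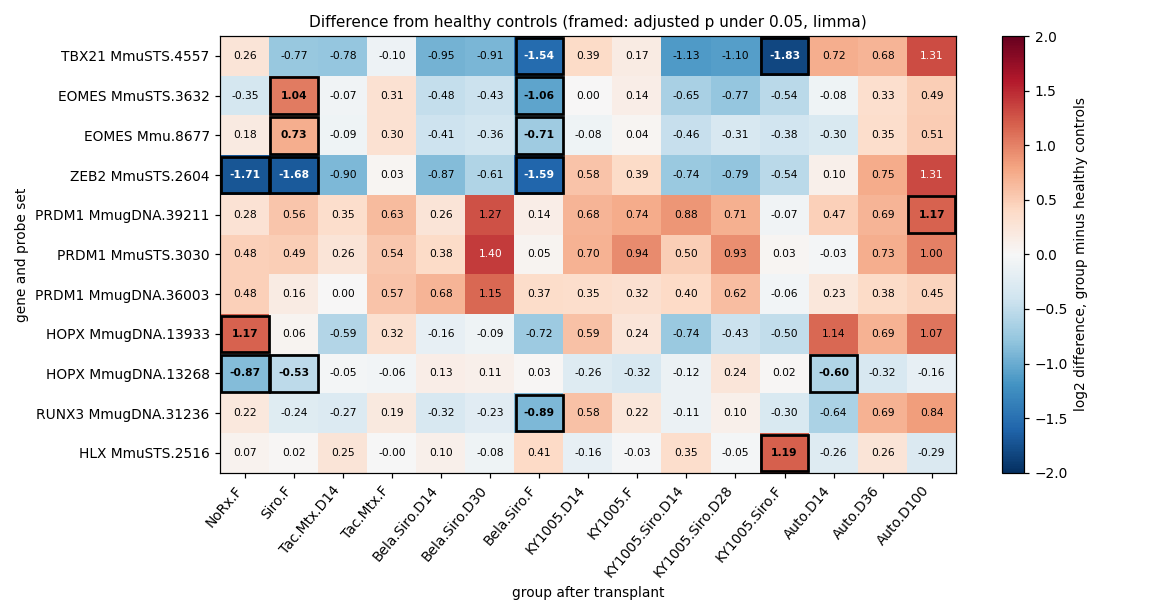
Log2 difference of each group after transplant from healthy controls (columns) for the 11 probe sets (rows), from the limma fit; frames mark an adjusted p under 0.05. TBX21 is at -1.54 in Bela.Siro.F and -1.83 in KY1005.Siro.F, both framed, and at +1.31 in Auto.D100, not framed.

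TBX21 encodes T-bet. Its mean signal was highest in Auto.D100 at 10.74 ± 0.44 and Auto.D36 at 10.59 ± 0.68 (SD over arrays, with n as above). KY1005.D14 at 10.32 ± 0.44, KY1005.F at 10.09 ± 0.71, Auto.D14 at 10.05 ± 0.61, NoRx.F at 9.96 ± 0.39 and Tac.Mtx.F at 9.88 ± 0.66 also stood above the healthy mean of 9.83 ± 0.68. Below it lay Tac.Mtx.D14 at 9.21 ± 0.24, Bela.Siro.D30 at 9.08 ± 1.64, Bela.Siro.D14 at 9.04 ± 1.72, Siro.F at 8.94 ± 0.98, KY1005.Siro.D28 at 8.83 ± 0.89, KY1005.Siro.D14 at 8.80 ± 0.83, Bela.Siro.F at 8.44 ± 0.54 and KY1005.Siro.F at 8.10 ± 1.33. The 7 groups with the lowest means had all received sirolimus, and no neighbours in the order were further apart than the larger of their SDs.

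In KY1005.Siro.F the TBX21 signal was 10.05 in animal R.217, 7.61 in R.219, 7.04 in R.220 and 7.70 in R.221, against a lowest, median and highest of 8.06, 9.92 and 11.20 in healthy controls. The signal of R.217 lay above the healthy median and the other 3 below the lowest healthy array. The fitted difference was -1.83 ± 0.48 (SE, adjusted p = 0.0101 in limma), or 3.55-fold lower. Without R.219 it was -1.66 ± 0.53 (adjusted p = 0.0794) and without R.220 -1.47 ± 0.52 (adjusted p = 0.101). Within the batch of the KY1005 groups, which holds 7 healthy arrays, the difference was -1.83 ± 0.48 with an adjusted p of 0.0658.

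Bela.Siro.F showed a lower TBX21 signal in 7 of 7 animals than the healthy median. Its arrays had a lowest value of 7.56, a median of 8.5 and a highest of 8.95, with 2 below every healthy array. The difference from healthy controls was -1.54 ± 0.36 (adjusted p = 0.00186), or 2.91-fold lower, and it remained past the threshold when any 1 array was left out. At earlier times of the same regimen the animals stood apart: R.38 had 10.45 at day 14 and 10.24 at day 30, R.42 had 7.12 and 7.92, and R.49 had 9.54 at day 14.

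With sirolimus in KY1005.Siro, TBX21 was below the healthy median in 5 of 5 animals at day 14 and in 5 of 5 at day 28. The differences were -1.13 ± 0.45 (adjusted p = 0.135) and -1.10 ± 0.45 (adjusted p = 0.0912), which did not pass, although at day 28 the difference without R.219 was -1.37 (adjusted p = 0.0488). KY1005 by itself had 10.01 and 10.63 in KY1005.D14 and 10.75, 10.20 and 9.34 in KY1005.F, inside the healthy range. In Auto.D100 the 4 arrays read 10.59, 11.40, 10.54 and 10.45, all above the healthy median, and the difference of +1.31 ± 0.47 did not pass (adjusted p = 0.112). With array weights it was +1.29 ± 0.35 and passed (adjusted p = 0.00531). So did those of ZEB2 (+1.3, adjusted p = 0.0117), the brighter HOPX probe set (+1.05, adjusted p = 0.00669) and RUNX3 (+0.78, adjusted p = 0.00306) in the same group. The second EOMES probe set passed there with array weights as well (+0.62, adjusted p = 0.0222).

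**Figure D2:**
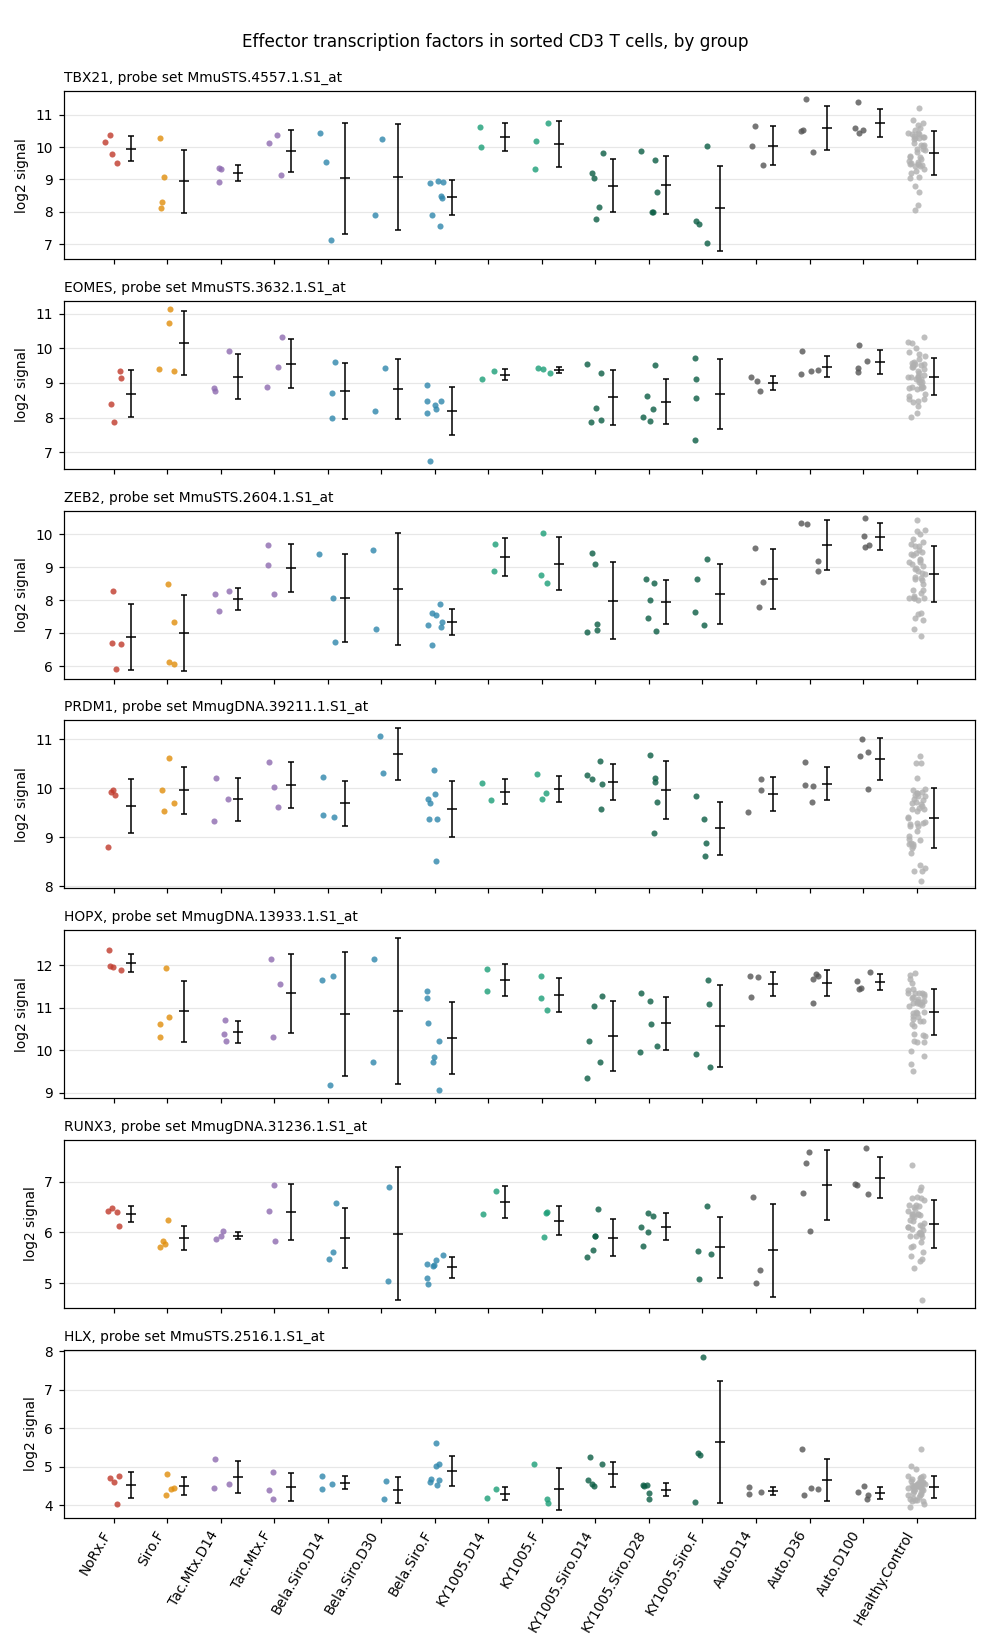
Log2 signal per array (points) with mean ± SD (bars) in the 16 groups, for the probe set with the highest mean of each gene. The 3 low TBX21 arrays of KY1005.Siro.F lie under the healthy lowest of 8.06, the 4 HOPX arrays of NoRx.F above the healthy highest of 11.81, and 1 HLX array of KY1005.Siro.F at 7.85 above every other array.

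EOMES encodes Eomes, which overlaps with T-bet in effector cells and is tied to memory cells. The highest mean of its brighter probe set was 10.15 ± 0.92 in Siro.F, followed by Auto.D100 at 9.62 ± 0.34, Tac.Mtx.F at 9.56 ± 0.72, Auto.D36 at 9.47 ± 0.30, KY1005.F at 9.37 ± 0.08 and KY1005.D14 at 9.24 ± 0.16. Healthy controls had 9.19 ± 0.54, just above Tac.Mtx.D14 at 9.18 ± 0.65, Auto.D14 at 9.0 ± 0.22, Bela.Siro.D30 at 8.82 ± 0.87 and Bela.Siro.D14 at 8.77 ± 0.80. The low end held NoRx.F at 8.69 ± 0.68, KY1005.Siro.F at 8.69 ± 1.01, KY1005.Siro.D14 at 8.58 ± 0.79, KY1005.Siro.D28 at 8.46 ± 0.64 and Bela.Siro.F at 8.20 ± 0.69. No neighbours in this order differed by more than their larger SD, although the ends of it did.

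EOMES was higher than in healthy controls in Siro.F and lower in Bela.Siro.F, groups that were not tested against each other. Siro.F arrays read 10.72 in R.13, 11.15 in R.18, 9.36 in R.17 and 9.39 in R.16, against 8.02, 9.17 and 10.33 as the lowest, median and highest of healthy controls. All 4 were above the healthy median and 2 of them above every healthy array. The difference was +1.04 ± 0.34 (adjusted p = 0.0409), and +0.73 ± 0.24 for the second probe set (adjusted p = 0.041). Without R.13 the first was +0.88 ± 0.40 (adjusted p = 0.196), without R.18 +0.72 ± 0.39 (adjusted p = 0.351), and within batches +1.01 ± 0.33 (adjusted p = 0.0796).

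The 7 Bela.Siro.F arrays ran from 6.74 to 8.94 for EOMES with a median of 8.36, all below the healthy median. The difference from healthy controls was -1.06 ± 0.29 (adjusted p = 0.00893) and for the second probe set -0.71 ± 0.20 (adjusted p = 0.0118). Animal R.66 had the value of 6.74, and without it the differences were -0.82 ± 0.29 (adjusted p = 0.0731) and -0.61 ± 0.21 (adjusted p = 0.0609). Across all arrays the 2 EOMES probe sets had a Pearson correlation of 0.889.

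ZEB2, the repressor induced by T-bet, was lower in 3 groups. The mean was 9.93 ± 0.40 in Auto.D100, 9.69 ± 0.76 in Auto.D36, 9.30 ± 0.58 in KY1005.D14, 9.11 ± 0.81 in KY1005.F and 8.98 ± 0.74 in Tac.Mtx.F. Healthy controls had 8.81 ± 0.85, above Auto.D14 at 8.65 ± 0.91, Bela.Siro.D30 at 8.34 ± 1.70, KY1005.Siro.F at 8.19 ± 0.91, Bela.Siro.D14 at 8.07 ± 1.35, Tac.Mtx.D14 at 8.05 ± 0.33, KY1005.Siro.D14 at 7.99 ± 1.18 and KY1005.Siro.D28 at 7.94 ± 0.68. Lowest were Bela.Siro.F at 7.35 ± 0.40, Siro.F at 7.01 ± 1.15 and NoRx.F at 6.89 ± 1.00. Each step between neighbours in the order was smaller than the larger SD of the pair.

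In NoRx.F the ZEB2 signal was 8.28 in R.53, 6.66 in R.50, 5.90 in R.51 and 6.72 in R.52, against 6.93, 8.88 and 10.43 as the lowest, median and highest of healthy controls. The last 3 animals lay below every healthy array. The difference was -1.71 ± 0.51 (adjusted p = 0.00669), 3.28-fold lower, and this call remained under each of the alternatives run, also with any 1 array of NoRx.F left out. TBX21 in the same 4 animals was 10.39, 9.79, 9.50 and 10.15, with a difference of +0.26 ± 0.45 (adjusted p = 0.723), so the ZEB2 signal was low in arrays where that of TBX21 was within the healthy range. A score of 9 myeloid markers, the mean log2 difference from the healthy mean, had a median of 1.88 in NoRx.F (0.03 to 2.86), against -0.03 in healthy controls (-1.25 to 1.57), and the ZEB2 call remained with this score as a covariate. A score of natural killer markers, formed likewise, had medians of -1.41 in NoRx.F, -0.77 in Siro.F and -0.65 in Bela.Siro.F. It was also low in KY1005.Siro.D14 (-0.89), where ZEB2 was not called, against -0.04 in healthy controls. This score was not used as a covariate, and the part of natural killer cells in the ZEB2 signal was not tested.

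Siro.F arrays had ZEB2 signals of 6.11 in R.13, 7.33 in R.18, 6.08 in R.17 and 8.49 in R.16. All 4 were below the healthy median and 2 below every healthy array. The difference was -1.68 ± 0.49 (adjusted p = 0.0162). It was -1.28 ± 0.55 without R.13 (adjusted p = 0.176), -1.74 ± 0.56 without R.18 (adjusted p = 0.0647), -1.43 ± 0.54 without R.17 (adjusted p = 0.089) and -1.75 ± 0.52 within batches (adjusted p = 0.0524). Bela.Siro.F arrays ran from 6.65 to 7.89 with a median of 7.35, all 7 below the healthy median of ZEB2, and differed from healthy controls by -1.59 ± 0.40 (adjusted p = 0.00486).

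**Figure D3:**
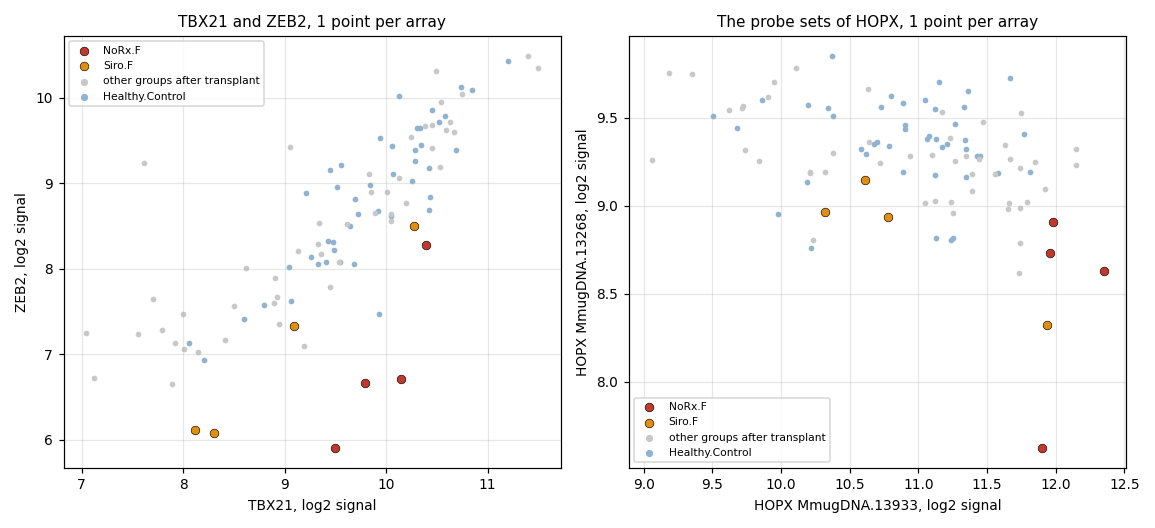
Log2 signal per array of TBX21 against ZEB2 (left) and of the brighter against the dimmer HOPX probe set (right); coloured points are NoRx.F and Siro.F, blue points healthy controls. Most arrays follow 1 line for TBX21 and ZEB2 (r = 0.781 over all arrays), while 3 NoRx.F and 2 Siro.F arrays lie under it with ZEB2 between 5.90 and 6.72.

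PRDM1 encodes Blimp-1, a transcriptional repressor that acts in terminal effector and plasma cells. For its brightest probe set the mean was 10.70 ± 0.53 in Bela.Siro.D30 and 10.60 ± 0.43 in Auto.D100. KY1005.Siro.D14 at 10.13 ± 0.36 followed at a step of 0.46, above the larger SD of that pair, 0.43. Then came Auto.D36 at 10.09 ± 0.33, Tac.Mtx.F at 10.06 ± 0.47, KY1005.F at 9.99 ± 0.27, KY1005.Siro.D28 at 9.96 ± 0.59, Siro.F at 9.96 ± 0.48, KY1005.D14 at 9.93 ± 0.25 and Auto.D14 at 9.89 ± 0.34. Tac.Mtx.D14 had 9.78 ± 0.44, Bela.Siro.D14 9.69 ± 0.46, NoRx.F 9.64 ± 0.55 and Bela.Siro.F 9.57 ± 0.58, and only KY1005.Siro.F at 9.18 ± 0.54 lay under the healthy 9.39 ± 0.61. The remaining steps in the order were within the larger SD of each pair.

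Auto.D100 had PRDM1 signals of 9.99 in R.60, 10.65 in R.200, 11 in R.202 and 10.74 in R.201, against 8.11, 9.42 and 10.65 as the lowest, median and highest of healthy controls. All 4 were above the healthy median and 2 above every healthy array. The difference of +1.17 ± 0.34 passed (adjusted p = 0.0437). With the animal as a random block it was +1.12 ± 0.34 (adjusted p = 0.0631), and it did not pass without R.200 (adjusted p = 0.162), R.202 (adjusted p = 0.136) or R.201 (adjusted p = 0.111). The second probe set read 7.84, 8.75, 9.06 and 8.82 in these arrays, against a healthy median of 7.65, and its difference of +1.00 did not pass, while it passed with no batch term (+1.12, adjusted p = 0.032) and with array weights (+1.13, adjusted p = 0.00295). In Bela.Siro.D30 the 2 arrays read 11.07 and 10.32, a difference of +1.27 ± 0.42 (adjusted p = 0.127).

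HOPX is raised by T-bet in Th1 effector cells of the mouse and supports their persistence. Its brighter probe set had its highest mean in NoRx.F, 12.05 ± 0.20, which stood 0.39 above KY1005.D14 at 11.65 ± 0.38, a step larger than either SD. Auto.D100 at 11.60 ± 0.19, Auto.D36 at 11.58 ± 0.31, Auto.D14 at 11.57 ± 0.28, Tac.Mtx.F at 11.34 ± 0.93, KY1005.F at 11.31 ± 0.40, Bela.Siro.D30 at 10.93 ± 1.72 and Siro.F at 10.92 ± 0.71 came before healthy controls at 10.90 ± 0.55. Below were Bela.Siro.D14 at 10.86 ± 1.45, KY1005.Siro.D28 at 10.64 ± 0.62, KY1005.Siro.F at 10.57 ± 0.97, Tac.Mtx.D14 at 10.44 ± 0.26, KY1005.Siro.D14 at 10.33 ± 0.82 and Bela.Siro.F at 10.30 ± 0.84. Apart from the first step, neighbours differed by less than the larger SD.

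The NoRx.F arrays read 11.98, 11.96, 11.90 and 12.35 for HOPX, against 9.51, 11.06 and 11.81 as the lowest, median and highest of healthy controls, so the groups did not overlap. The difference was +1.17 ± 0.38 (adjusted p = 0.0144), and it did not pass without R.52 (+1.09 ± 0.42, adjusted p = 0.0505) or with array weights (+1.14 ± 0.44, adjusted p = 0.0521). It remained past the threshold with the myeloid score, high in NoRx.F, as a covariate. The dimmer HOPX probe set went the other way, with 8.90, 8.73, 7.62 and 8.63 in NoRx.F against 8.76, 9.38 and 9.85 in healthy controls, a difference of -0.87 ± 0.16 (adjusted p = 5.33e-06). It was also lower in Siro.F by -0.53 ± 0.15 (adjusted p = 0.0144) and in Auto.D14 by -0.60 ± 0.20 (adjusted p = 0.0241). The mean of both probe sets gave +0.15 ± 0.19 in NoRx.F (adjusted p = 0.583). Over all arrays the probe sets correlated at -0.417 and over healthy arrays at -0.0802, so the direction of HOPX depends on the probe set read.

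The Siro.F call of the dimmer HOPX probe set did not pass without R.18 (-0.55, adjusted p = 0.0598), without R.16 (-0.37, adjusted p = 0.171) or within batches (-0.52, adjusted p = 0.123). In Auto.D14 the arrays of R.201 and R.202 had log2 ratios between the 3' and 5' actin controls of 3.30 and 3.38, against a healthy median of 0.785. Without all 6 arrays above a ratio of 2.5 the Auto.D14 difference was -0.31 ± 0.28 (adjusted p = 0.796). It was -0.61 without R.201 (adjusted p = 0.0802) and -0.44 without R.202 (adjusted p = 0.235).

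RUNX3 directs the CD8 cytotoxic lineage. The mean of its probe set was 7.08 ± 0.40 in Auto.D100, 6.94 ± 0.69 in Auto.D36, 6.59 ± 0.31 in KY1005.D14, 6.40 ± 0.55 in Tac.Mtx.F, 6.36 ± 0.16 in NoRx.F and 6.23 ± 0.28 in KY1005.F. Healthy controls had 6.17 ± 0.47. KY1005.Siro.D28 at 6.11 ± 0.26, Bela.Siro.D30 at 5.97 ± 1.31, Tac.Mtx.D14 at 5.94 ± 0.07, KY1005.Siro.D14 at 5.90 ± 0.36, Bela.Siro.D14 at 5.89 ± 0.60, Siro.F at 5.89 ± 0.24, KY1005.Siro.F at 5.71 ± 0.60, Auto.D14 at 5.65 ± 0.91 and Bela.Siro.F at 5.31 ± 0.20 followed. Autologous groups thus stood at the top at days 36 and 100 and near the bottom at day 14, and no step between neighbours exceeded the larger SD.

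The 7 Bela.Siro.F arrays read between 4.98 and 5.56 for RUNX3 with a median of 5.36, against 4.67, 6.19 and 7.34 as the lowest, median and highest of healthy controls. All 7 were under the healthy median but inside the healthy range. The difference was -0.89 ± 0.22 (adjusted p = 0.00417) and passed with any 1 array left out. In Auto.D14 the difference was -0.64, which did not pass, and without R.200 it was -1.16 ± 0.39 (adjusted p = 0.0194), resting then on R.201 and R.202, the arrays of high actin ratio.

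HLX, the homeobox partner of T-bet, was near background in most arrays. Its mean was 5.65 ± 1.58 in KY1005.Siro.F, 4.89 ± 0.39 in Bela.Siro.F, 4.81 ± 0.33 in KY1005.Siro.D14, 4.74 ± 0.42 in Tac.Mtx.D14, 4.65 ± 0.54 in Auto.D36 and 4.59 ± 0.17 in Bela.Siro.D14. NoRx.F at 4.53 ± 0.34, Siro.F at 4.49 ± 0.23, Tac.Mtx.F at 4.48 ± 0.37, healthy controls at 4.48 ± 0.28, KY1005.F at 4.43 ± 0.55, KY1005.Siro.D28 at 4.41 ± 0.17, Bela.Siro.D30 at 4.40 ± 0.33, Auto.D14 at 4.38 ± 0.10, Auto.D100 at 4.32 ± 0.15 and KY1005.D14 at 4.30 ± 0.17 completed the order. No neighbours differed by more than the larger SD. KY1005.Siro.F arrays read 4.08 in R.217, 7.85 in R.219, 5.36 in R.220 and 5.32 in R.221, against 3.96, 4.49 and 5.45 in healthy controls, with R.219 alone above the healthy highest. The difference of +1.19 ± 0.27 (adjusted p = 0.00202) was +0.46 ± 0.22 without R.219 (adjusted p = 0.263).

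Monocyte genes were higher in these groups, and not in them alone. The median myeloid score was 2.89 in KY1005.Siro.F and 1.59 in Bela.Siro.F, beside 2.31 in Bela.Siro.D14, 1.88 in NoRx.F, 1.85 in KY1005.Siro.D14 and 1.44 in Tac.Mtx.F, and -0.03 in healthy controls. Of 9 measured myeloid markers 5 rose in KY1005.Siro.F, where 6.84% of all probe sets were called. The median difference of the 9 was 2.19 against -0.09 for all genes. Those that rose included CD14 by 1.57, S100A9 by 4.41, VCAN by 3.57 and FCN1 by 3.39. In Bela.Siro.F 4 of 9 rose, where 10% of all were called, including S100A9 by 5.01 and VCAN by 2.73. The score of these markers was -0.70 in R.217, 4.27 in R.219, 2.85 in R.220 and 2.93 in R.221 of KY1005.Siro.F. It ran from 0.81 to 3.25 in Bela.Siro.F, against -1.25 to 1.57 in healthy controls. The animal with a TBX21 signal inside the healthy range, R.217, was thus the one with a score in that range, and R.219, with the HLX value of 7.85, had the highest score of its group.

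Granulocyte markers rose as well in KY1005.Siro.F, 4 of 6 measured, where 6.84% of all were called, including CSF3R by 2.01 and MMP9 by 3.43. Of 7 measured T cell markers 3 were lower there, CD8A by -0.64, CD8B by -0.95 and CD5 by -0.55. None of 7 passed in Bela.Siro.F, where 10% of all were called. With the myeloid score as a covariate the difference of TBX21 was -1.21 ± 0.49 in KY1005.Siro.F (adjusted p = 0.122) and -1.01 ± 0.37 in Bela.Siro.F (adjusted p = 0.128). In the same fit ZEB2 had -1.35 ± 0.44 (adjusted p = 0.0743), EOMES -0.69 ± 0.30 (adjusted p = 0.247) and RUNX3 -0.61 ± 0.24 (adjusted p = 0.16) in Bela.Siro.F. HLX had +0.59 ± 0.23 in KY1005.Siro.F (adjusted p = 0.113). The part of myeloid RNA in these results was not tested beyond this covariate.

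**Figure D4:**
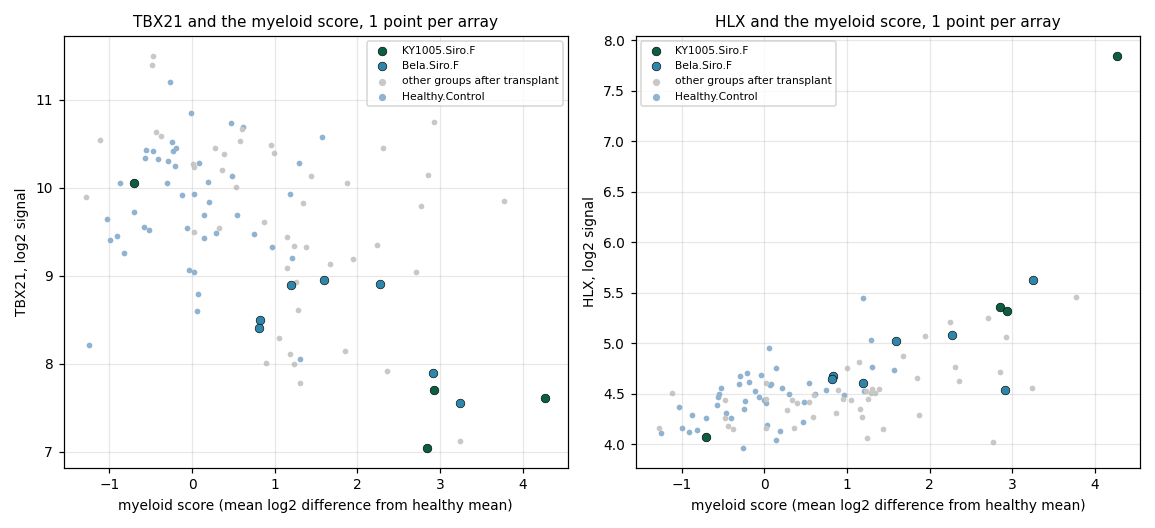
Log2 signal of TBX21 (left) and HLX (right) per array against the myeloid score, the mean log2 difference of myeloid markers from their healthy means. The KY1005.Siro.F animal with a score of -0.70 has TBX21 at 10.05, and the one with a score of 4.27 has HLX at 7.85.

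Regimens were next set against recipients without prophylaxis. These 5 comparisons share the NoRx.F arrays. Of the groups compared, only Siro.F lies in the batches of NoRx.F. The fit joins the others to NoRx.F through healthy arrays. Most arrays of the other groups were also sampled later than those of NoRx.F, so regimen and time cannot be told apart. In Siro.F minus NoRx.F 1 of 11 probe sets passed, against 6.46% of all. That was EOMES, at 10.72, 11.15, 9.36 and 9.39 in Siro.F, against 9.14, 7.88, 9.36 and 8.39 in NoRx.F, with the lowest Siro.F array above the highest NoRx.F array only past the second decimal and a difference of +1.39 ± 0.44 (adjusted p = 0.0379). It did not pass without R.13 (+1.26, adjusted p = 0.0944) or R.18 (+1.12, adjusted p = 0.14) of Siro.F, without R.50 (+1.15, adjusted p = 0.161) or R.52 (+1.32, adjusted p = 0.0972) of NoRx.F, or within batches (+1.38, adjusted p = 0.0754). Nor did it pass with array weights (+1.59, adjusted p = 0.0659), the myeloid score as a covariate (+1.23, adjusted p = 0.0647) or the mean of both probe sets (+0.97, adjusted p = 0.0789).

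Bela.Siro.F minus NoRx.F had 5 of 11, from 4 genes, against 14.0% of all. TBX21 differed by -1.80 ± 0.57 (adjusted p = 0.0226) with no overlap, from 7.56 to 8.95 in Bela.Siro.F against 9.50 to 10.39 in NoRx.F, but did not pass without R.53 of NoRx.F (-1.60, adjusted p = 0.0859) or with array weights (-1.74, adjusted p = 0.0513). RUNX3 differed by -1.11 ± 0.36 (adjusted p = 0.0244), also without overlap, and the call was lost without R.53 (-1.07, adjusted p = 0.0635) or R.50 (-1.08, adjusted p = 0.0511). The brighter HOPX probe set differed by -1.90 ± 0.49 (adjusted p = 0.0035) and the dimmer by +0.90 ± 0.20 (adjusted p = 0.000638), each without overlap. The mean of both HOPX probe sets differed by -0.50 and did not pass (adjusted p = 0.145). The second EOMES probe set, at -0.89 ± 0.32 (adjusted p = 0.0498), was past the threshold by little and lost its call without any one of R.42, R.49, R.68, R.66 and R.70 of Bela.Siro.F or R.53, R.51 and R.52 of NoRx.F. ZEB2, low in both groups, differed by +0.12.

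In KY1005.Siro.D14 and Tac.Mtx.F against NoRx.F the only member calls were of HOPX probe sets. Their numbers were near the shares of all probe sets called. In KY1005.Siro.D14 minus NoRx.F 2 of 11 passed, against 15.6% of all. The brighter HOPX probe set read 11.05, 11.27, 9.35, 9.74 and 10.23 in KY1005.Siro.D14, all under the lowest NoRx.F array at 11.90, a difference of -1.91 ± 0.54 (adjusted p = 0.00825). The mean of both probe sets differed by -0.58 and did not pass (adjusted p = 0.116). The dimmer one differed by +0.75 ± 0.22 (adjusted p = 0.0116), and by +0.62 without R.219 of KY1005.Siro.D14 (adjusted p = 0.0546) and +0.50 without R.51 of NoRx.F (adjusted p = 0.107). Tac.Mtx.F minus NoRx.F had 1 of 11, against 5.18% of all, the dimmer HOPX probe set at 9.19, 9.18 and 9.32 in Tac.Mtx.F with a difference of +0.82 ± 0.23 (adjusted p = 0.0229). This call was lost without R.51 of NoRx.F (+0.56, adjusted p = 0.16) or without R.21 (+0.84, adjusted p = 0.0557) or R.19 (+0.77, adjusted p = 0.0841) of Tac.Mtx.F.

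KY1005.F minus NoRx.F had 0 of 11 in limma, against 8.74% of all. At an unadjusted p under 0.05 there were 2 of 11 members and 7987 of all probe sets. ZEB2 in KY1005.F was 10.04, 8.77 and 8.54, above the NoRx.F highest of 8.28 in each animal, and the difference of +2.10 ± 0.78 did not pass (adjusted p = 0.0744). It was +2.22 ± 0.65 without the batch term (adjusted p = 0.0119) and +2.66 without R.53 of NoRx.F (adjusted p = 0.0266), and without R.53 the dimmer HOPX probe set differed by +0.74 (adjusted p = 0.0481). KY1005.Siro.D14 minus KY1005.F had 0 of 11, against 0.363% of all. At an unadjusted p under 0.05 it had 2 members and 5340 of all probe sets. TBX21 in that comparison differed by -1.29, and by -1.43 ± 0.36 with array weights (adjusted p = 0.00217). These KY1005 groups lie in the same batch.

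Recipients of donor cells were set against autologous recipients at near but not equal times. The groups compared did not share a batch. NoRx.F was sampled on days 6 to 12 and Auto.D14 on day 14, so source of the cells and time cannot be told apart there. NoRx.F minus Auto.D14 had 0 of 11 in limma, against 7.50% of all. At an unadjusted p under 0.05 it had 1 member and 7179 of all probe sets. RUNX3 there differed by +0.86, and by +1.38 ± 0.47 without R.200 of Auto.D14 (adjusted p = 0.0359). KY1005.Siro.D14 minus Auto.D14 had 1 of 11, against 8.88% of all, the brighter HOPX probe set, with arrays at 11.25, 11.73 and 11.74 in Auto.D14 against the KY1005.Siro.D14 values above, which overlap with them. The fitted difference of -1.88 ± 0.61 (adjusted p = 0.0403) was -1.25 ± 0.47 without the batch term (adjusted p = 0.185) and -2.18 ± 0.84 without the arrays of high actin ratio (adjusted p = 0.558). It was also lost without R.201 (-2.04, adjusted p = 0.0909) or R.202 (-1.81, adjusted p = 0.134) of Auto.D14 and without R.219 (-1.64, adjusted p = 0.0998) or R.220 (-1.73, adjusted p = 0.0717) of KY1005.Siro.D14. The mean of both HOPX probe sets differed by -0.70 and did not pass (adjusted p = 0.107).

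KY1005.Siro.D28 minus Auto.D36 had 0 of 11 in limma, against 7.98% of all. At an unadjusted p under 0.05 it had 5 members and 7190 of all probe sets. TBX21 was 8.00, 9.61, 9.89, 8.01 and 8.62 in KY1005.Siro.D28, against 9.85, 11.50, 10.53 and 10.49 in Auto.D36. The groups touched at a single array on each side, and the difference was -1.79 ± 0.63 (adjusted p = 0.0611). It passed without the batch term (-1.77, adjusted p = 0.0135), with array weights (-1.67, adjusted p = 0.0341), without R.62 of Auto.D36 (-2.07, adjusted p = 0.0486) and without R.218 (-1.98, adjusted p = 0.0391) or R.219 (-2.05, adjusted p = 0.0345) of KY1005.Siro.D28.

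By about day 100 the TBX21 signals of the regimens no longer overlapped. KY1005.Siro.F minus Auto.D100 had 2 of 11, against 7.18% of all. At an unadjusted p under 0.05 it had 7 of 11 members and 7445 of all probe sets. TBX21 was 10.05, 7.61, 7.04 and 7.70 in KY1005.Siro.F, against 10.59, 11.40, 10.54 and 10.45 in Auto.D100. The difference of -3.14 ± 0.67 (adjusted p = 0.00239), 8.80-fold lower, was the largest of any member in any comparison made, and it passed under each alternative and with any of the 8 arrays left out. The groups come from different batches, so the fit joins them through healthy arrays, and the difference of plain means was -2.64. HLX differed by +1.48 ± 0.37 (adjusted p = 0.00994), and by +0.75 ± 0.30 without R.219 (adjusted p = 0.131). ZEB2 differed by -1.85, PRDM1 by -1.24, the brighter HOPX probe set by -1.57 and RUNX3 by -1.14, none past the threshold. With array weights all 4 passed, ZEB2 at -2.37 (adjusted p = 0.0043), PRDM1 at -1.45 (adjusted p = 0.00999), HOPX at -2.02 (adjusted p = 0.00117) and RUNX3 at -1.38 (adjusted p = 0.00136). PRDM1 and RUNX3 also passed with no batch term (adjusted p = 0.0114 and 0.00393), and RUNX3 without the arrays of high actin ratio (adjusted p = 0.0131). Without R.217 the differences of PRDM1 (-1.46, adjusted p = 0.0487), HOPX (-1.74, adjusted p = 0.0455) and RUNX3 (-1.42, adjusted p = 0.0224) passed, and without R.219 that of HOPX did (-1.93, adjusted p = 0.0446). The myeloid score ran from -0.70 to 4.27 in KY1005.Siro.F and from -1.12 to 0.28 in Auto.D100.

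Within the autologous recipients RUNX3 was higher at day 100 than at day 14. Auto.D100 minus Auto.D14 had 1 of 11, against 7.35% of all. RUNX3 was 6.94 in R.60, 7.67 in R.200, 6.93 in R.202 and 6.77 in R.201 in Auto.D100, against 5.00 in R.201, 5.25 in R.202 and 6.69 in R.200 in Auto.D14. The 2 times did not overlap, and the 3 animals seen at both had the higher value at day 100. The difference was +1.48 ± 0.37 (adjusted p = 0.0105), and with the animal as a fixed block +1.48 ± 0.21 (adjusted p = 0.112). Leaving out the arrays of high actin ratio, which removes R.201 and R.202 at day 14, gave +0.45 ± 0.46 (adjusted p = 1). It was +1.15 without R.201 at day 14 (adjusted p = 0.195), +1.28 without R.202 at day 14 (adjusted p = 0.267) and +1.28 without R.200 at day 100 (adjusted p = 0.0501). ZEB2 differed by +1.21 and TBX21 by +0.59, neither past the threshold. With array weights ZEB2 passed (+1.56, adjusted p = 0.0365), as did the second EOMES (+1.08, adjusted p = 0.00472), second PRDM1 (+1.40, adjusted p = 0.0108) and dimmer HOPX probe sets (+0.51, adjusted p = 0.0133). Without R.200 at day 14 the second EOMES probe set differed by +1.09 (adjusted p = 0.0294).

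**Figure D5:**
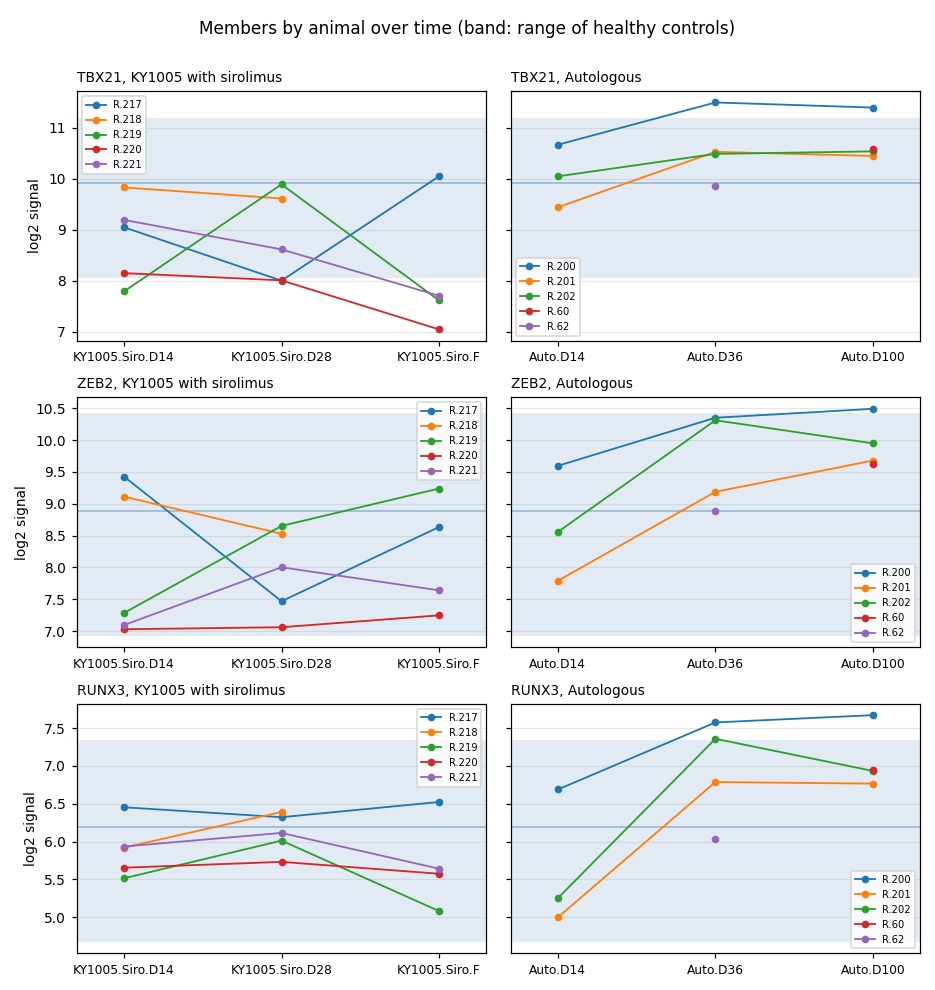
Log2 signal of TBX21, ZEB2 and RUNX3 by animal over time, for KY1005 with sirolimus (left) and autologous recipients (right); the band is the range and the line the median of healthy controls. RUNX3 in the autologous animals is between 5.00 and 6.69 at day 14 and between 6.77 and 7.67 at day 100, and TBX21 in 3 of 4 KY1005.Siro.F animals ends under the band.

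No member passed in the other time comparisons. Limma gave 0 of 11 for KY1005.Siro.D28 minus KY1005.Siro.D14 (0.00946% of all called, 1 of 11 at an unadjusted p under 0.05) and for KY1005.Siro.F minus KY1005.Siro.D14 (1.25%, 2 of 11). It gave 0 of 11 for Tac.Mtx.F minus Tac.Mtx.D14 (0.00631%, 0 of 11) and for Bela.Siro.F minus Bela.Siro.D14 (0.00315%, 0 of 11). Over all probe sets, unadjusted p-values under 0.05 numbered 2997, 4703, 1865 and 2037 in these comparisons, in the order given. In KY1005.Siro the PRDM1 signal differed by -0.95 and that of TBX21 by -0.70 between the last time and day 14, and HLX by +0.84, or by +1.37 without R.217 (adjusted p = 0.00053). The difference of the KY1005.Siro and Auto time courses, tested as an interaction, had 0 of 11 in limma, against 0% of all, with 4 of 11 members and 3268 of all probe sets at an unadjusted p under 0.05. RUNX3 had an interaction of -1.67 ± 0.49 (adjusted p = 0.159) and PRDM1 of -1.65, and with array weights these were -1.88 ± 0.41 (adjusted p = 0.00191) and -1.81 ± 0.53 (adjusted p = 0.0179).

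Some recipients had a healthy array of their own, which gives the change within an animal without a test. The pair lay in 1 batch for R.53, R.13, R.18, R.49 and R.60 but in different batches for R.16 and for R.200, R.201 and R.202 at days 14 and 100. ZEB2 in Siro.F was 6.11 in R.13, 7.33 in R.18 and 8.49 in R.16, against 9.86, 6.93 and 8.88 in the same animals when healthy, so that its change was -3.74 in R.13, +0.41 in R.18 and -0.39 in R.16. The low mean of Siro.F thus included an animal, R.18, whose healthy array was the lowest of all for ZEB2. R.53, the NoRx.F animal with such an array, had a ZEB2 change of +0.15 and a change of +1.79 for the brighter HOPX probe set. For EOMES the change in Siro.F was positive in 3 of 3 animals, from +0.72 to +2.26. In Auto.D100 TBX21, ZEB2, RUNX3 and the brightest probe sets of PRDM1 and HOPX were above the healthy array of the same animal in 4 of 4 animals, by 0.69 to 1.45 for ZEB2 and by 0.41 to 0.99 for RUNX3. The brighter EOMES probe set was above it in 2 of 4, the second PRDM1 and the dimmer HOPX probe sets in 3 of 4, and HLX in none of 4. In Auto.D14 RUNX3 was under it in 3 of 3, by -0.16 in R.200, -0.69 in R.202 and -1.36 in R.201. R.49 of Bela.Siro.F had changes of -1.15 for TBX21, -1.54 for ZEB2, -1.39 for EOMES and -0.96 for RUNX3.

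The factors tracked each other unevenly across arrays. Over all arrays the Pearson correlation of TBX21 was 0.781 with ZEB2, 0.762 with the brighter and -0.213 with the dimmer HOPX probe set, 0.668 with RUNX3, 0.465 with EOMES, 0.296 with PRDM1 and -0.39 with HLX. In the 45 healthy arrays by themselves it was 0.861 with ZEB2, 0.817 with the brighter and -0.0867 with the dimmer HOPX probe set, 0.404 with RUNX3, 0.241 with EOMES, 0.446 with PRDM1 and -0.112 with HLX. The arrays share batches, regimens and animals, so these values describe the set and carry no test. The 3 PRDM1 probe sets correlated at 0.887 and 0.666 with the brightest of them.

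The genes most like each factor over all arrays were found among the 10718 genes tested, by Pearson correlation with the probe set of highest mean. For TBX21 they were GZMH, which encodes a granzyme (0.911), CLIC5 (0.882), PRR5L (0.88), GFI1 (0.88) and S1PR5, a receptor for sphingosine phosphate (0.877). In the 45 healthy arrays TBX21 was most like METTL14 (0.94), S1PR5 (0.92) and FRMD4B (0.915). ZEB2 was most like S1PR5 (0.886), CPD (0.883) and METTL14 (0.864), and HOPX like CST7 (0.864), MYO1F (0.856) and GZMB (0.841). EOMES was most like FAM184B (0.751), SLAMF7 (0.635) and FASLG (0.635), and PRDM1 like BHLHE40 (0.728), EED (0.668) and FAS (0.637). RUNX3 was most like CX3CR1 (0.805), a receptor of the chemokine fractalkine, then USP28 (0.766) and CCL5 (0.753). HLX was most like FPR1 (0.859), CSF3R (0.849) and IL13RA1 (0.841), of which FPR1 and CSF3R are expressed by myeloid cells. In healthy arrays HLX was most like PSMC3IP (0.693).

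Genes that T-box factors and effector differentiation switch on, a list of 26 with 20 measured, were counted in the same fit. In NoRx.F 11 of 20 rose and 1 fell, where 27.5% of all probe sets were called. The median difference was 0.98 against 0.05 for all genes. GNLY, a lytic granule protein, rose by 2.09 ± 0.42, FGFBP2 by 2.03 ± 0.64, GZMB, which encodes granzyme B, by 1.70 ± 0.36 and SLAMF7 by 1.64 ± 0.52. The gene that fell was S1PR5, by -1.51 ± 0.50 (adjusted p = 0.0162). It was the gene most like ZEB2 over all arrays, those of NoRx.F included, so its fall and that of ZEB2 are not independent. In healthy arrays FBXW7 (0.904) came before S1PR5 (0.9). The list had no PRF1, GZMM, CCL4, IL2RB or IL18R1 probe set of its own. In Siro.F 3 of 20 rose and none fell, where 8.91% of all were called. The 3 were IFNG by 1.56 ± 0.52 (adjusted p = 0.0444), IL18RAP by 1.42 ± 0.42 and CXCR3, the chemokine receptor of Th1 cells, by 0.76 ± 0.21.

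In Bela.Siro.F members of the same list were lower. It had 0 of 20 higher and 9 lower, where 10% of all were called, with a median of -0.83 against 0.04 for all genes. The 9 included the chemokine CCL5 by -2.05 ± 0.44, S1PR5 by -1.91 ± 0.40, SLAMF7 by -1.88 ± 0.41 and GZMH by -1.73 ± 0.39. KY1005.Siro.F had 2 of 20 lower, where 6.84% of all were called, GZMH by -1.76 ± 0.52 and CXCR3 by -0.89 ± 0.23, with a median of -0.71 against -0.09. Auto.D100 had 2 of 20 higher, where 2.48% of all were called, CX3CR1 by 2.05 ± 0.40 and S1PR5 by 1.74 ± 0.52. Its median was 0.88 against 0.03. Against Auto.D100, KY1005.Siro.F had 8 of 20 lower and none higher, where 7.18% of all were called, with a median of -1.23 against -0.11. The 8 included S1PR5 by -3.33 ± 0.74, GZMH by -2.87 ± 0.73, CX3CR1 by -2.45 ± 0.58 and NKG7 by -2.23 ± 0.59. Bela.Siro.F against NoRx.F had 10 of 20 lower, where 14.0% of all were called, with a median of -1.51 against -0.01 for all genes. KY1005.Siro.D14 against NoRx.F had 8 of 20 lower, where 15.6% were called, with a median of -1.26 against -0.07. CD8A was lower in KY1005.Siro.F than in Auto.D100 as well, by -0.84 (adjusted p = 0.019), and KLRF1, a receptor of natural killer cells, was lower than in healthy controls by -1.90 in Bela.Siro.F and by -2.79 in NoRx.F. The part of cell composition in these shifts was not tested.

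Factors that oppose effector differentiation and maintain naive or memory cells, 12 listed and 10 measured, were lower in NoRx.F in 4 of 10 and higher in none, where 27.5% of all were called in both directions, with a median of -0.64 against 0.05 for all genes. KLF7 fell by 1.98, TCF7, which encodes TCF-1, by 1.5, FOXP1 by 1.28 and KLF2, a factor of quiescence and egress, by 0.79. Auto.D100 had 2 of 10 lower, where 2.48% of all were called, TCF7 by -0.64 and FOXP1 by -0.62. KY1005.Siro.F had 1 of 10 higher, MYB by 2.20, near the 6.84% of all called there. Against Auto.D100 it had 3 of 10 higher, where 7.18% were called, MYB by 2.29, SATB1 by 1.81 and KLF7 by 1.45. Bela.Siro.F (10% of all called) had MYB higher by 2.15 and FOXO1 lower by -0.72. In Siro.F (8.91% of all called) ID3 rose by 1.43, while KLF7, FOXP1 and KLF2 fell by 0.81, 0.78 and 0.59.

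Partner and cofactor transcription factors, 18 listed and 14 measured, moved both ways. NoRx.F had 4 of 14 higher and 3 lower, where 27.5% of all were called, with a median of 0.13 against 0.05 for all genes, including IRF8 by 2.52, NFIL3 by 1.52, BATF by 1.47 and RUNX1, a paralog of RUNX3, by -1.51. Siro.F had 4 higher and 2 lower, where 8.91% were called, with a median of 0.28 against 0.02 and IRF8 by 2.07, BATF by 1.21, RUNX2 by 1.15 and RUNX1 by -0.87. RUNX3 in these groups differed by +0.22 in NoRx.F and by -0.24 in Siro.F, neither past the threshold, and the paralogs were not tested against each other. Bela.Siro.F had 2 higher, NFIL3 by 1.42 and RUNX2 by 1.04, and 2 lower, IKZF2 by -1.28 and IKZF3 by -1.0, where 10% were called, with a median of -0.01 against 0.04. KY1005.Siro.F (6.84% of all called) had NFIL3 higher by 2.85 and RUNX1 lower by -0.48.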

How the data were processed

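RNA of sorted CD3 T cells was hybridised to Affymetrix rhesus arrays. The authors deposited log2 RMA signals (affy, per the submitters' processing notes; version not given in the sources used here). A batch effect may have been removed from them already, since a test for batch over the healthy arrays gave p under 0.05 at 0.274% of probe sets and p over 0.95 at 24.9%. Gene names come from the platform annotation. Probe sets with several genes (361) or none (27535) were not named.

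The filter on low values asked for 5.21 (the overall median) in 3 or more arrays, and 99 control probe sets were left out. Limma 3.58.1 in R 4.3.3 fitted all 16 groups together with the 6 labelled batches as a factor, on 80 residual plus 3.38 prior df. Adjustment ran over 31710 probe sets. The fit was tested on simulated data. For lists and likeness each gene was represented by the brightest probe set that names it alone. Genes named from a list are those past the threshold with the largest differences, up to 4 per comparison, plus exceptions and markers chosen after their values were seen (S1PR5 in NoRx.F, and CD14, FCN1, VCAN, CD8A, CD8B, CD5 and KLRF1 where given). The members, lists and comparisons were chosen with earlier results of these data known. Figures were drawn with matplotlib 3.10.9.

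Animals recur between groups. Over 51 pairs of arrays of the same animal the residuals correlated at a median of 0.183, and the pairing by animal comes from the labels. The alternatives tried left out the batch term, added the animal (random or fixed block), array weights or the myeloid score, changed the filter, prior or normalization, averaged a gene's probe sets, kept to the batches that hold the group, or dropped arrays (high actin ratio, the repeated animal, each in turn). The number of arrays limits the precision.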

Additional observations from a re-analysis of the deposited data

Results flagged for a closer look

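Of 88 sets of 4 to 10 arrays (1 group and 1 probe set each), 6 held an array far from the rest by Dixon's test at 95%, where chance gives about 1 in 20. TBX21 in Auto.D100 was 11.4 in R.200, with the nearest other array at 10.59. EOMES in Bela.Siro.F was 6.74 in R.66, with the nearest at 8.12. PRDM1 in NoRx.F was 8.81 in R.51 for its brightest probe set, with the nearest at 9.85, and 5.45 in R.50 for its dimmest, with the nearest at 6.25. The dimmer HOPX probe set in Auto.D36 was 9.26 in R.202, with the nearest at 9.03. HLX in Auto.D36 was 5.46 in R.62, with the nearest at 4.45. Causes were not tested.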

How the results depend on the processing

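Of 29 member values past the threshold, 7 remained past it under each of the 11 or 12 alternatives run for them: ZEB2 in NoRx.F, TBX21 in KY1005.Siro.F minus Auto.D100 (-2.35 to -3.18, and down to -3.79 with 1 array left out), RUNX3 in Bela.Siro.F minus NoRx.F, and the dimmer HOPX probe set in NoRx.F, Bela.Siro.F minus NoRx.F, KY1005.Siro.D14 minus NoRx.F and Tac.Mtx.F minus NoRx.F. Of these 7, RUNX3 in Bela.Siro.F minus NoRx.F and HOPX in KY1005.Siro.D14 and Tac.Mtx.F minus NoRx.F lost the call without 2, 2 and 3 of the single arrays left out. No value past the threshold changed sign in the alternatives run for it. The mean of a gene's probe sets was set only against its brightest probe set, so the dimmer HOPX calls did not face it. That mean gave HOPX +0.15 in NoRx.F, -0.50 in Bela.Siro.F minus NoRx.F and -0.58 in KY1005.Siro.D14 minus NoRx.F. These are opposite in sign to the dimmer probe set, and none passed (adjusted p = 0.583, 0.145 and 0.116 in limma). Read by the probe set of highest mean, TBX21 passed in 2 groups, against 3 with no batch term, 3 with array weights, 1 without the high-actin arrays, 0 adjusting for the myeloid score and 1 within batches. EOMES passed in 2, against 3 with array weights, 1 with no filter, 1 with the myeloid covariate and 1 within batches. ZEB2 passed in 3, against 4 with array weights, 2 with the myeloid covariate and 2 within batches. PRDM1 passed in 1, against 0 with the random animal block, 0 with no filter, 0 after quantile normalization, 0 with the mean of probe sets and 0 within batches. HOPX passed in 1, NoRx.F, against 2 with array weights (Auto.D100 and Bela.Siro.F, while NoRx.F was lost at an adjusted p of 0.0521), 0 with the mean of probe sets and 2 within batches. RUNX3 passed in 1, against 3 with no batch term, 4 with array weights and 2 without the high-actin arrays. HLX passed in 1, against 0 with the myeloid covariate and 0 within batches, and the stricter filter dropped it. Between regimens and times 9 passed, against 14 with no batch term, 20 with array weights and 5 with the mean of probe sets. With each of 56 arrays left out in turn the counts were 1 to 3 for TBX21, 1 to 2 for EOMES, 0 to 1 for PRDM1, 2 to 3 for ZEB2, 0 to 1 for HOPX, 1 to 2 for RUNX3, 0 to 1 for HLX and 7 to 14 between regimens and times. The replicate block (animal) moved no count other than that of PRDM1 with the random block, by over 1.5 times: between regimens and times it gave 9 with the random and 8 with the fixed block. Same-animal residuals correlated at 0.149 to 0.285 in 3 Auto pairs, 0.221 to 0.395 in 3 Tac.Mtx pairs and 0.136 to 0.432 in 3 Bela.Siro pairs, and at -0.0853 to 0.441 in 5 pairs of KY1005.Siro.D28 with D14 and -0.231 to 0.0977 in 4 pairs of KY1005.Siro.F with D14. Causes of these changes were not tested.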
